A study of Mus musculus with 2 samples.

Results

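The genes of the circadian clock were followed in single islet cells of wild-type (WT) and ghrelin-knockout (GKO) mice. The 10 genes were Arntl, Clock, Npas2, Per2, Per3, Cry1, Cry2, Nr1d1, Nr1d2 and Dbp, found by their symbols among the 27998 genes of the count tables, and all 10 were listed in both libraries. GKO mice carry a germline deletion of the gene for ghrelin, a stomach hormone that also acts on the islet. Mice of both genotypes were littermates of the C57BL/6N strain from crosses of heterozygotes, 8 weeks old and fed freely, with no other allele or agent stated for either group. Islets of 4 mice per genotype were pooled, dispersed and sorted for live single cells, and each pool gave 1 droplet library that counts transcripts from their 3′ ends. The question asked of these genes was whether they differed between the genotypes in the same way in all islet cell types.

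The clock is a feedback loop of transcription that runs in nearly every cell and sets daily rhythms of metabolism and, in islets, of hormone secretion. ARNTL (also called BMAL1) pairs with CLOCK or its relative NPAS2 and switches on genes through E-box elements, among them the Per, Cry, Nr1d and Dbp genes. PER and CRY proteins then repress ARNTL and CLOCK, the nuclear receptors NR1D1 and NR1D2 (REV-ERB alpha and beta) repress Arntl through ROR elements, and DBP carries the rhythm to genes with D-boxes. In a running clock, Arntl therefore peaks at another time of day than Nr1d1 and Dbp do. The hour at which each pool was collected is not given in the sources used here, and with 1 pool per genotype, time of collection and genotype cannot be told apart.

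On the mouse build GRCm38, the activators lie at chr7:113207465-113314126 (Arntl), chr5:76209868-76304792 (Clock) and chr1:39193731-39363236 (Npas2). The repressors lie at chr1:91415982-91459324 (Per2), chr4:151003652-151044665 (Per3), chr10:85131700-85185064 (Cry1) and chr2:92403646-92434043 (Cry2). The receptor genes lie at chr11:98767932-98775333 (Nr1d1) and chr14:18204054-18239127 (Nr1d2), and Dbp lies at chr7:45705088-45710203. Exons of Nr1d1 overlap those of Thra on the opposite strand, and the same holds for Dbp with Sphk2, Cry2 with D930015M05Rik and Arntl with Gm45355. The counting setting for strand is not given in the sources used here, so reads of these pairs may be shared.

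Promoter windows of RefSeq (GRCm38.p6, from 250 bases before to 50 bases after a start) matched 9 of the 10 genes, with 12 windows, and Per2 was not matched. Windows were searched on both strands for 4 short motifs, and the matches found did not overlap each other. The E-box CACGTG was in 7.15% of all 32851 windows, the related CACGTT in 4.68%, the D-box TTATGTAA in 0.938% and the ROR element TAGGTCA in 2.61%. A match was found for 5 of the 9 genes. The windows of Clock, Npas2, Nr1d2 and Dbp held none of these letters, and 1 of 2 Arntl windows held TAGGTCA from 30 to 36 bases after the start. The stretches of 120 bases below show the matches that lay before a start, in capitals, in the genes whose levels are described next. They lie upstream of the printed genes, are read 5′ to 3′ on the minus strand, and overlap no other gene of GENCODE vM21 except for Per3, whose stretch lies within an intron of Camta1 on the same strand. The Per3 stretch (chr4:151044784-151044903) holds the D-box letters at 2 places, the Cry1 stretch (chr10:85185067-85185186) holds an E-box and the other strand of CACGTT, and the Cry2 (chr2:92434174-92434293) and Nr1d1 (chr11:98775390-98775509) stretches each hold the other strand of CACGTT once.
Per3: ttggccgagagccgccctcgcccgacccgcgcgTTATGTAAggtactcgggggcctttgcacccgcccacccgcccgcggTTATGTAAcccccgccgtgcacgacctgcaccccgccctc
Cry1: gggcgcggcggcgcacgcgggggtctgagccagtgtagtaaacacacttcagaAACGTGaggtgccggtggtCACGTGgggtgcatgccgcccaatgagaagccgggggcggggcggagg
Cry2: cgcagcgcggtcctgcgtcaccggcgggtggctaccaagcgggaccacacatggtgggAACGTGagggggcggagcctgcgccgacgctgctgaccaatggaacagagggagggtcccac
Nr1d1: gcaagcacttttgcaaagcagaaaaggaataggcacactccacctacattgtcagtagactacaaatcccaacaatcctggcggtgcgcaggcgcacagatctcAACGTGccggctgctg

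The WT library held 158067110 UMIs (unique molecular identifiers, 1 per captured transcript) in 7792 barcodes, and the GKO library 103511757 UMIs in 7289 barcodes. Those that had 500 or more genes and no more than 10% of UMIs from mitochondrial genes numbered 7100 in WT and 6346 in GKO and were used. Ghrl, the deleted gene, had 43634 UMIs in WT and 280 in GKO. A barcode was called insulin-, glucagon-, somatostatin- or PP-led (pancreatic polypeptide) when that hormone was its most abundant and took at least 10% of its UMIs, and nonendocrine when none did. In WT and GKO these classes held 2265 and 872 insulin-led, 1048 and 1397 glucagon-led, 1414 and 1003 somatostatin-led, 717 and 669 PP-led, and 1656 and 2405 nonendocrine barcodes. Within the nonendocrine class, barcodes with at least 3 markers of a cell type, and more than of any other, were set apart as endothelial (594 and 448), activated stellate (253 and 570), quiescent stellate (212 and 428), macrophage (202 and 468) and epithelial-marker (210 and 216). The last list was of duct markers, but the data went against that name, since Chga, an endocrine gene, had a UMI in 86.2% and 74.5% of these barcodes, and Krt19 in 37.1% and 44.9%. RNA of acinar cells, read from 7 enzyme genes, was higher in the WT library, at 505 against 88.0 UMIs per 1000000 (CPM) in insulin-led and 15845 against 2441 CPM in nonendocrine barcodes. Only 18 barcode sequences occurred in both libraries.

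The clock genes had different levels in different islet cells. Levels are CPM of a class, with exact 95% Poisson intervals that cover counting error only. Because hormone transcripts took 65.7% (WT) and 63.7% (GKO) of the UMIs of insulin-led barcodes but 30.5% and 30.0% of those of somatostatin-led ones, orders of classes were also read per 1000000 UMIs other than hormones. Of the hormone-led classes, the somatostatin-led one had the highest levels of Per3, Nr1d1, Nr1d2 and Dbp. Per3 was at 69.1 CPM in WT and 73.2 CPM in GKO somatostatin-led barcodes, against 6.83 to 17.5 CPM (WT) and 6.80 to 24.8 CPM (GKO) in the other hormone-led classes. Nr1d2 was at 61.0 and 56.4 CPM there, and at most 17.8 and 17.7 CPM in the other hormone-led classes. Dbp was at 39.1 and 43.0 CPM, against at most 9.24 and 14.3 CPM. Nr1d1 was at 29.3 and 25.04 CPM, against at most 9.04 and 7.07 CPM. Per 1000000 UMIs other than hormones, Per3 (99.4 and 105) and Nr1d2 (87.7 and 80.5) were highest in somatostatin-led barcodes of all 9 classes in both libraries, with intervals apart from those of the next class, the epithelial-marker one. For Dbp the somatostatin-led interval was apart from the next in WT (56.3 against 28.8) and overlapped it in GKO (61.4 against 53.5).

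**Figure D1:**
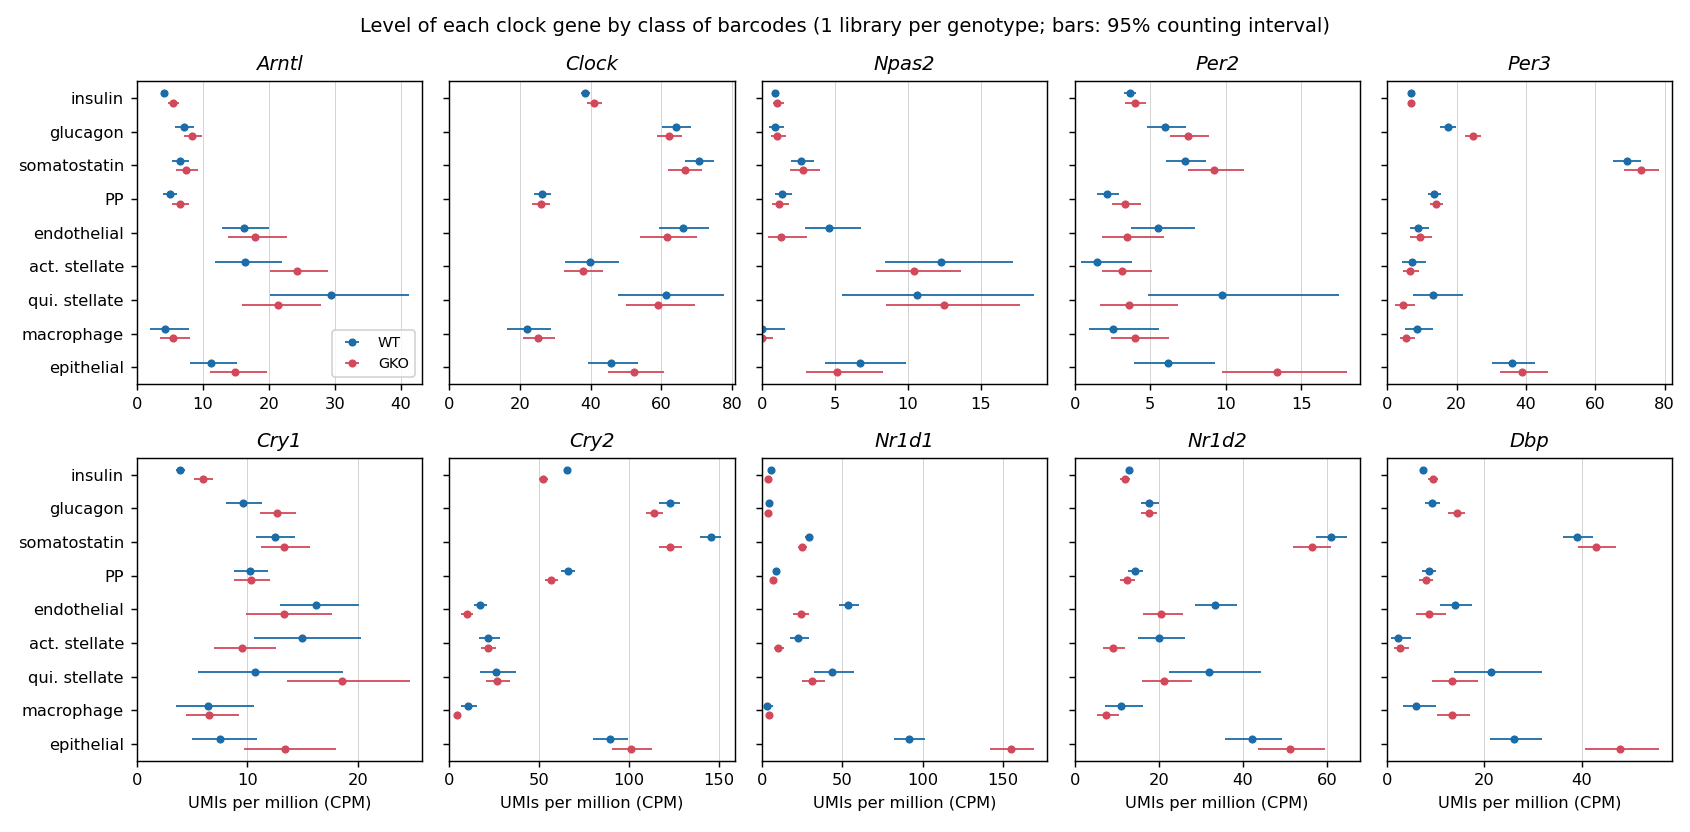
Level of each clock gene in UMIs per 1000000 (x axis, from 0) in 9 classes of barcodes, blue for the WT library and red for the GKO library, with bars for exact 95% Poisson intervals of the counts. Per3, Nr1d2 and Dbp were high in somatostatin-led barcodes, and Nr1d1 was highest in the epithelial-marker class, at 91.5 CPM in WT and 155 CPM in GKO.

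The activators had another order. Arntl was highest in stellate and endothelial barcodes, from 16.2 to 29.3 CPM in WT and from 17.9 to 24.3 CPM in GKO, with overlapping intervals between neighbours in that order, and lay at 4.07 to 7.10 CPM in hormone-led WT barcodes. Npas2, the relative of Clock, was highest in activated stellate (12.3 and 10.5 CPM) and quiescent stellate barcodes (10.7 and 12.5 CPM). Macrophage barcodes held no Npas2 UMI in either library, among 2333880 and 4743545 UMIs, which by a floor of 3 counts allows up to 1.29 CPM and 0.632 CPM. Of the activators, only Clock had another highest class on the other scale. Clock was highest in somatostatin-led barcodes in CPM (70.7 and 66.6) and in insulin-led barcodes per 1000000 UMIs other than hormones (112 and 113). On the latter scale Arntl was at 9.38 to 11.9 in hormone-led WT barcodes, still below its values in stellate and endothelial ones. The insulin-led WT interval (10.7 to 13.2) overlapped those of activated stellate (12.1 to 22.4) and endothelial barcodes (13.1 to 20.3), but not that of quiescent stellate ones. In GKO, insulin-led barcodes were at 15.3 (13.2 to 17.7). This interval overlapped those of endothelial (14.0 to 22.9) and quiescent stellate barcodes (16.2 to 28.2), but not that of activated stellate ones.

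The repressor Cry2 had 65.2 to 145 CPM in hormone-led, 89.1 CPM in epithelial-marker and 10.3 to 25.8 CPM in endothelial, stellate and macrophage WT barcodes. Its counterpart Cry1 showed no such split, with 3.95 to 12.4 CPM in hormone-led and 6.43 to 16.2 CPM in those nonendocrine WT classes. Nr1d1 was low in glucagon-led (4.55 CPM in WT), insulin-led (5.94 CPM) and macrophage barcodes (3.43 CPM) and higher in endothelial (53.8 CPM) and epithelial-marker ones (91.5 CPM). Per2 was low everywhere, between 1.49 and 9.78 CPM in WT, and most neighbours in its order had overlapping intervals. On the scale of UMIs other than hormones, Cry2 and Nr1d1 kept their highest class in both libraries. On that scale Nr1d1 was at 17.3 in insulin-led WT barcodes, near the PP-led value (17.7). Its interval there was apart from that of glucagon-led barcodes (6.56). Cry1 became highest in PP-led barcodes (20.1 in WT and 19.7 in GKO), with intervals that overlapped the next. Per2 became highest in insulin-led WT barcodes (10.7), also with overlap, and stayed highest in epithelial-marker barcodes in GKO.

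Between the libraries, most clock genes differed little within a class. A gene was counted in a class when it had at least 100 UMIs over both libraries, and called higher or lower in GKO when the log2 ratio of GKO to WT was at least 0.5 in size. There was 1 library per genotype, so these are differences between 2 libraries without a replicate check, and no p-value was computed. The nonendocrine class mixes cell types whose shares differed between the libraries, and its ratios hold this mixture too. Over the 10 genes and 5 classes, 46 of 50 pairs had enough UMIs, and 3 were past this fold upward, 2 downward and 41 neither, with a median size of 0.21 on the log2 scale. The exact 95% interval lay above 0 for 8 pairs, below 0 for 10 and held 0 for 28.

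The members past the fold differed from class to class. In insulin-led barcodes 1 of 10 was higher (Cry1) and 1 lower (Nr1d1), where 3.81% and 2.55% of all genes were past the fold upward and downward. In glucagon-led barcodes 2 of 9 were higher (Per3 and Dbp) and none lower, against 2.67% and 2.48% of all genes. Of 9 members in somatostatin-led and 8 in PP-led barcodes none was past the fold, where the shares of all genes were 2.34% and 2.5% in the former and 2.8% and 1.72% in the latter. In nonendocrine barcodes 1 of 10 was lower (Nr1d2) and none higher, against 9.87% higher and 7.07% lower of all genes. The median log2 ratio of the counted members was 0.11 in insulin-led, 0.25 in glucagon-led, 0.08 in somatostatin-led, -0.06 in PP-led and -0.14 in nonendocrine barcodes, beside 0.09, 0.05, 0.03, 0.06 and 0.01 for all counted genes.

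**Figure D2:**
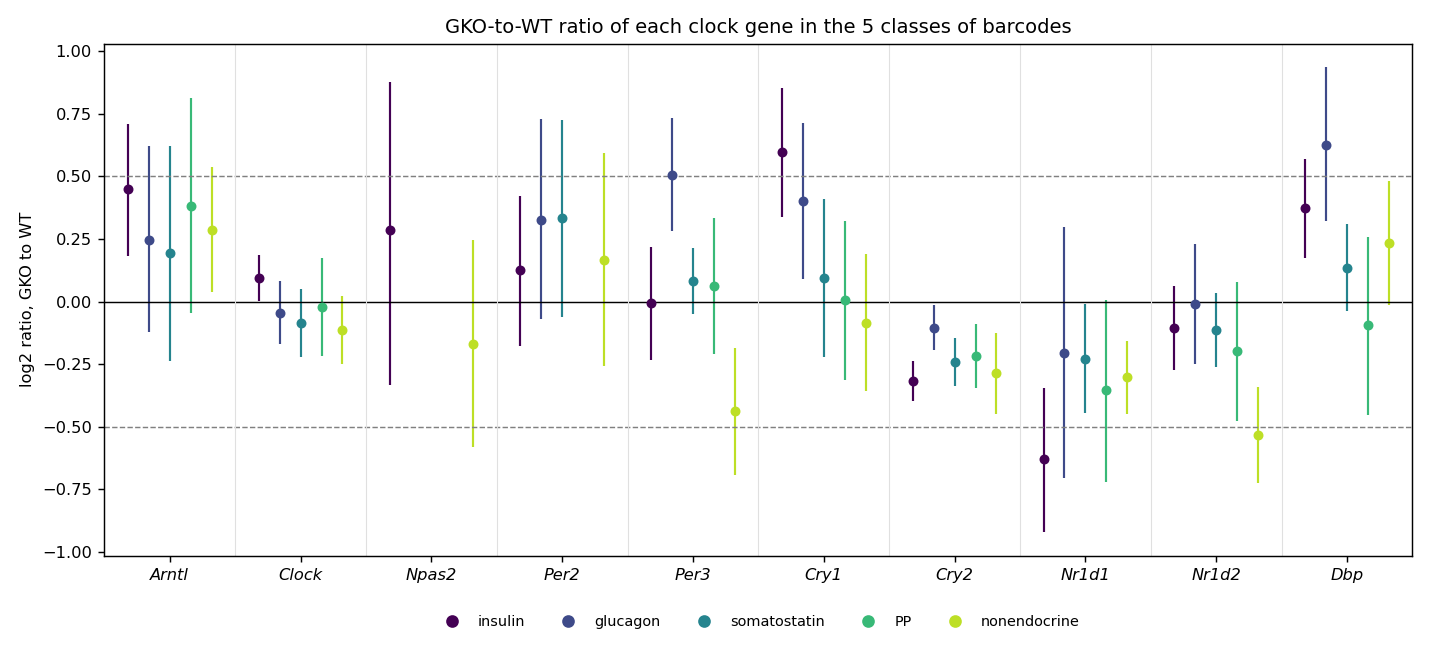
Log2 ratio of GKO to WT (y axis) for each clock gene in insulin-, glucagon-, somatostatin-, PP-led and nonendocrine barcodes (colours), with exact 95% intervals as bars, dashed lines at 0.5 and -0.5, and pairs under 100 UMIs left out. All 5 Arntl values lie above 0, all 5 values of Cry2, Nr1d1 and Nr1d2 lie below 0, and Per3, Cry1 and Dbp spread to both sides.

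Among the activators, Arntl was higher in GKO in each of the 5 classes. In insulin-led barcodes it had 362 UMIs in WT and 182 in GKO, or 4.07 and 5.55 CPM, a log2 ratio of 0.45 (0.18 to 0.71), which became 0.040 (-0.72 to 0.76) with each barcode thinned to 5000 UMIs. In nonendocrine barcodes it stood at 12.8 and 15.7 CPM, 0.29 (0.04 to 0.54). The ratios in glucagon-led (0.25), somatostatin-led (0.20) and PP-led barcodes (0.38) had intervals that held 0. Of 9537 genes counted in all 5 classes, 17.8% were positive in each of them, so a shared positive sign was common. Clock, the partner of Arntl, lay between -0.11 and 0.09, and only its insulin-led interval (0.0021 to 0.19) lay above 0. TMM scaling put that insulin-led value at -0.0033. Npas2 had enough UMIs in 2 classes, insulin-led (78 and 35 UMIs, 0.28) and nonendocrine (96 and 106 UMIs, -0.17), and both intervals held 0.

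Of the repressors Per2, Per3, Cry1 and Cry2, only Cry2 was lower in GKO in all 5 classes, with every interval below 0. In insulin-led barcodes it had 65.2 CPM in WT and 52.3 CPM in GKO (5804 and 1717 UMIs), a log2 ratio of -0.32 (-0.40 to -0.24). The ratio was -0.24 (-0.34 to -0.15) in somatostatin-led, -0.22 (-0.35 to -0.09) in PP-led, -0.29 (-0.45 to -0.12) in nonendocrine and -0.10 (-0.20 to -0.01) in glucagon-led barcodes. Each of these is within the fold of 0.5, and 6.72% of the 9537 genes were negative in all 5 classes. The sizes differed, and the insulin-led and glucagon-led intervals did not overlap. Within the nonendocrine class Cry2 also differed by cell type. It was at -0.84 in endothelial, -0.01 in activated stellate and 0.18 in epithelial-marker barcodes, and the intervals of the latter 2 held 0.

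Cry1 differed by class. It was higher in GKO in insulin-led barcodes, with 352 and 196 UMIs or 3.95 and 5.97 CPM, a log2 ratio of 0.60 (0.34 to 0.85), and in glucagon-led barcodes, with 9.59 and 12.7 CPM, 0.40 (0.09 to 0.71). In somatostatin-led (0.10), PP-led (0.00) and nonendocrine barcodes (-0.08) the intervals held 0. After TMM scaling the insulin-led value was 0.498 and no longer past the fold. UMIs of Cry2 per UMI of Cry1 were lower in GKO in insulin-led barcodes, at 16.5 in WT and 8.76 in GKO, in glucagon-led ones, at 12.8 and 9.00, and in somatostatin-led ones, at 11.7 and 9.23, with intervals of the log2 ratio below 0. In activated stellate barcodes they were 1.45 and 2.27, with an interval that held 0. This ratio was not planned, and it joins the Cry2 and Cry1 values given above, so it is not a separate result.

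The counted ratios of Per3 spread more widely over the classes than those of Per2. Per3 was higher in GKO in glucagon-led barcodes, with 253 and 464 UMIs or 17.5 and 24.8 CPM, a log2 ratio of 0.51 (0.28 to 0.73), which 5 of 11 alternatives put between 0.41 and 0.49, inside the fold. It was lower in nonendocrine barcodes, with 15.5 and 11.4 CPM, -0.44 (-0.69 to -0.19). Cell types took other shares of the nonendocrine class in each library, and that ratio holds this mixture too. Within its types Per3 was at 0.12 in epithelial-marker barcodes, and under 100 UMIs at 0.06 in endothelial and -0.12 in activated stellate ones, with intervals that held 0. Also under 100 UMIs, Per3 was at -1.59 (-2.86 to -0.37) in quiescent stellate barcodes. It was at -1.67 (-2.68 to -0.74, 35 and 14 UMIs) in nonendocrine barcodes that no marker list set apart. Macrophage (-0.64) and B cell barcodes (0.59, 3 and 3 UMIs) had intervals that held 0. In insulin-led, somatostatin-led and PP-led barcodes Per3 lay between -0.01 and 0.08. Per2 was counted in 4 classes, where its ratios ran from 0.13 to 0.33 with all intervals holding 0. In each of these 4 classes the intervals of Per2 and Per3 overlapped. In PP-led barcodes Per2 was under 100 UMIs (37 and 52), at 0.64 (0.0052 to 1.29).

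Nr1d1, the receptor gene that turns down Arntl, was lower in GKO in all 5 classes. In insulin-led barcodes it was past the fold, with 529 UMIs in WT and 126 in GKO or 5.94 and 3.84 CPM, a log2 ratio of -0.63 (-0.92 to -0.35). In nonendocrine barcodes it had 43.5 and 35.3 CPM, -0.30 (-0.45 to -0.16), and in somatostatin-led ones 29.3 and 25.04 CPM, -0.23 (-0.45 to -0.01). The intervals in glucagon-led (-0.20) and PP-led barcodes (-0.35) held 0. Within the nonendocrine class Nr1d1 was at -1.16 in endothelial, -1.15 in activated stellate and 0.76 in epithelial-marker barcodes. Some values in the hormone-led classes moved with the processing. With each barcode thinned to 5000 UMIs, 67 and 28 UMIs were left in insulin-led barcodes and the ratio was 0.12 (-0.58 to 0.77). Equal weight for every barcode without thinning gave -0.62, near the reported value. The glucagon-led value turned positive in 3 of 11 alternatives, up to 0.87, and the somatostatin-led value in 2 of 11, up to 0.11, both highest values coming from leaving out barcodes with signs of 2 cell types.

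Its relative Nr1d2 was past the fold only in nonendocrine barcodes, with 489 and 419 UMIs or 27.8 and 19.2 CPM, a log2 ratio of -0.53 (-0.73 to -0.34), and at -0.44 it was inside the fold with every deposited barcode. In the hormone-led classes it ran from -0.20 to -0.01 with intervals that held 0. Within the nonendocrine class Nr1d2 was at -0.70 in endothelial, -1.15 in activated stellate and 0.28 in epithelial-marker barcodes.

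Dbp, the output factor, was above 0 in 4 of the 5 classes, where Nr1d1 was below 0 in all 5. It was higher in GKO in glucagon-led barcodes, with 134 and 267 UMIs or 9.24 and 14.3 CPM, a log2 ratio of 0.62 (0.32 to 0.94), and in insulin-led barcodes, with 7.28 and 9.42 CPM, 0.37 (0.17 to 0.57). In somatostatin-led (0.14), PP-led (-0.10) and nonendocrine barcodes (0.23) the intervals held 0, and the last value was -0.23 with equal weight of barcodes. The glucagon-led value stayed past the fold under all 11 alternatives. Within the nonendocrine class Dbp had the sign of Nr1d1 in endothelial (-0.71 beside -1.16) and epithelial-marker barcodes (0.88 beside 0.76). In activated stellate barcodes Dbp had only 6 and 13 UMIs.

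Ratios of 2 clock genes within a library do not depend on its total. Dbp UMIs per Arntl UMI were 1.79 in WT and 1.70 in GKO insulin-led barcodes, 6.00 and 5.76 in somatostatin-led, and 1.00 and 0.968 in nonendocrine ones. The GKO-to-WT log2 ratio of this quantity was -0.08 (-0.41 to 0.26), -0.06 (-0.52 to 0.41) and -0.05 (-0.41 to 0.30) in these classes, 0.38 (-0.11 to 0.86) in glucagon-led and -0.48 (-1.04 to 0.09) in PP-led barcodes. All 5 intervals held 0. The same quantity for Nr1d1, chosen after its values were seen, was lower in GKO in 7 of 8 classes, with the interval below 0 in 5. The 8 are not separate counts, since the endothelial, activated stellate and epithelial-marker classes are parts of the nonendocrine one. This quantity joins the Nr1d1 and Arntl values given for the same classes, so it is not a separate result. Nr1d1 UMIs per Arntl UMI were 1.46 in WT and 0.692 in GKO insulin-led barcodes, a log2 ratio of -1.08 (-1.47 to -0.69), and 3.39 and 2.25 in nonendocrine ones, -0.59 (-0.88 to -0.30). With barcodes thinned, the insulin-led value was 0.076 (-0.94 to 1.10).

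**Figure D3:**
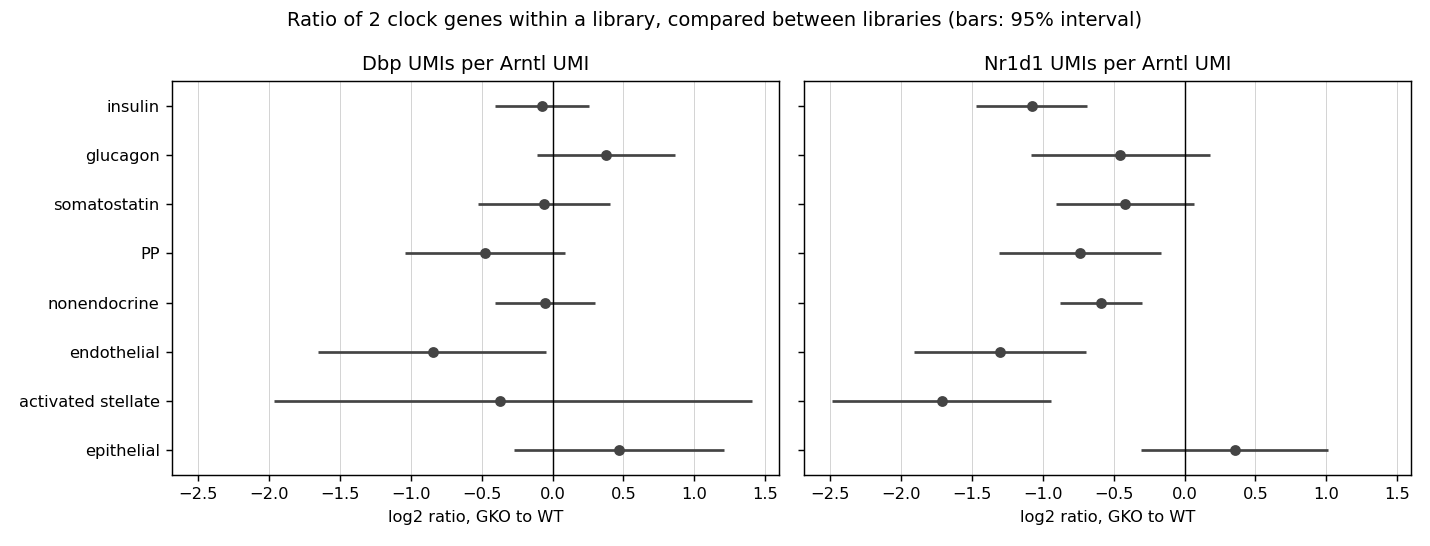
Log2 ratio of GKO to WT (x axis) of Dbp UMIs per Arntl UMI (left) and Nr1d1 UMIs per Arntl UMI (right) in 8 classes of barcodes, with exact 95% intervals as bars. The endothelial, activated stellate and epithelial-marker classes are parts of the nonendocrine one. The Dbp intervals hold 0 in 7 classes and lie below it in endothelial barcodes (-0.85), while the Nr1d1 values lie below 0 except in epithelial-marker barcodes (0.36). The Nr1d1 quantity was chosen after its values were seen.

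In the 3 marker classes more of the counted pairs were past the fold than in the 5 classes, in both directions. In endothelial, activated stellate and epithelial-marker barcodes, 18 of 30 pairs were counted, of which 3 were higher and 6 lower. Of all genes, 4.17% to 17.5% were past the fold upward in these 3 classes and 3.03% to 5.92% downward. In the 5 classes these shares were 2.34% to 9.87% and 1.72% to 7.07%. The epithelial-marker class, where most barcodes had a Chga UMI, gave 2 of the 3 higher pairs. Of 7 members counted in endothelial barcodes, 4 were lower and none higher, where 4.17% of all genes were higher and 3.59% lower, and the median of these members was -0.70 beside 0.05 for all counted genes. Nr1d1 had 282 UMIs in WT and 90 in GKO endothelial barcodes, or 53.8 and 24.0 CPM, a log2 ratio of -1.16 (-1.52 to -0.82). Cry2 was at 17.2 and 9.61 CPM, -0.84 (-1.44 to -0.27). Nr1d2 was at 33.4 and 20.5 CPM, -0.70 (-1.11 to -0.31), and Dbp at 13.9 and 8.54 CPM, -0.71 (-1.35 to -0.09), or -0.26 when thinned. The values of Nr1d1, Nr1d2 and Cry2 stayed past the fold under the 7 alternatives that altered them. The Arntl (0.14), Clock (-0.10) and Cry1 (-0.28) intervals held 0. The endothelial marker list was at 20491 and 21513 CPM in these barcodes, acinar enzymes were at 1451 and 335 CPM, and the part of acinar RNA in the result was not tested.

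Activated stellate barcodes had 5 counted members, of which 1 was higher and 2 lower, against 9.94% and 5.92% of all genes. Nr1d1 had 61 and 52 UMIs, or 22.7 and 10.3 CPM, a log2 ratio of -1.15 (-1.71 to -0.59). Nr1d2 had 54 and 46 UMIs, -1.15 (-1.75 to -0.55), and Arntl had 44 and 123 UMIs, 0.57 (0.06 to 1.10), or 0.36 when thinned. Clock (-0.08) and Cry2 (-0.01) had intervals that held 0. Here the 2 receptor genes were at less than the WT level while Arntl was above it. Nr1d1 UMIs per Arntl UMI, which join these same values, were 1.39 in WT and 0.423 in GKO.

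In epithelial-marker barcodes Nr1d1 lay on the other side. Of 6 counted members 2 were higher and none lower, where 17.5% of all genes were higher and 3.03% lower and the median of all counted genes was 0.24, as was that of the members. Nr1d1 had 341 and 509 UMIs, or 91.5 and 155 CPM, a log2 ratio of 0.76 (0.56 to 0.96), and Dbp 97 and 157 UMIs, or 26.0 and 47.8 CPM, 0.88 (0.50 to 1.26), or 0.41 with equal weight of barcodes. The other 4 counted members (Clock, Per3, Cry2 and Nr1d2) ran from 0.12 to 0.28 with intervals that held 0, and the first 3 turned negative after TMM scaling, which brought the median of all genes to -0.0048. Acinar enzymes took 61343 CPM in WT and 7855 CPM in GKO in this class, and their part in the result was not tested. In the barcodes with at least 2 of Krt19, Krt7 and Sox9 (99 and 110), a subset taken after seeing the data, Nr1d1 was at 165 and 278 CPM, 0.75 (0.55 to 0.96), and Dbp at 23.8 and 65.6 CPM, 1.46 (0.96 to 1.99). In the other epithelial-marker barcodes Nr1d1 was at 12.2 and 16.2 CPM, 0.40 (-0.48 to 1.30), and Dbp was at 28.4 and 27.8 CPM, -0.03 (-0.65 to 0.59).

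**Figure D4:**
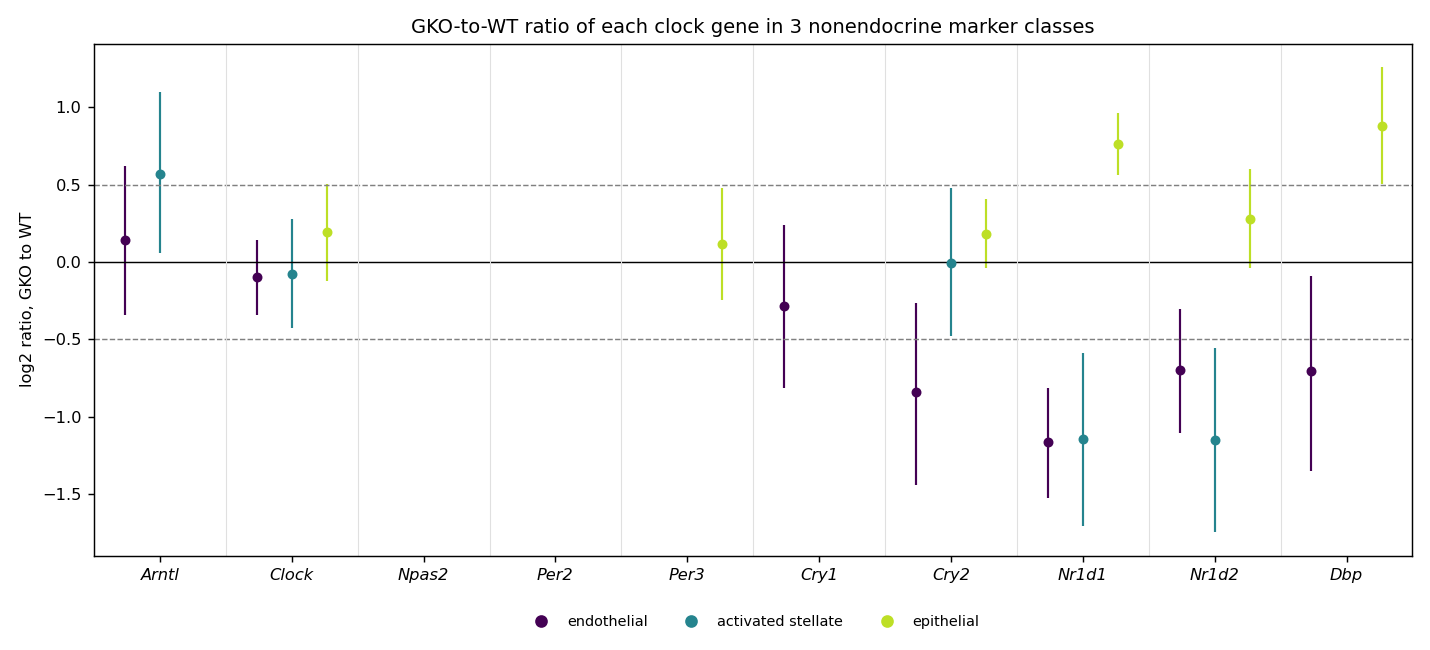
Log2 ratio of GKO to WT (y axis) for each clock gene in endothelial, activated stellate and epithelial-marker barcodes (colours), with exact 95% intervals as bars, dashed lines at 0.5 and -0.5, and pairs under 100 UMIs left out. Nr1d1 lies at -1.16 and -1.15 in the first 2 classes and at 0.76 in the epithelial-marker class.

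Quiescent stellate and macrophage barcodes had few UMIs of these genes. Nr1d1 was counted in quiescent stellate barcodes, with 49 and 78 UMIs and a log2 ratio of -0.47 (-1.01 to 0.07), and Clock in both classes, at -0.05 and 0.20 with intervals that held 0. Among those under 100 UMIs, Dbp had 14 UMIs in WT and 63 in GKO macrophage barcodes, or 6.00 and 13.3 CPM, 1.15 (0.30 to 2.10). Intervals below 0 were those of Per2 (11 and 9 UMIs, -1.43) and Per3 (15 and 11 UMIs, -1.59) in quiescent stellate and of Cry2 (24 and 21 UMIs, -1.22) in macrophage barcodes.

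Sums over whole libraries gave another picture than the classes did. The share of insulin-led barcodes among those kept was 31.9% in WT and 13.7% in GKO, and that of nonendocrine ones was 23.3% and 37.9%. Over all kept barcodes Arntl was at 5.71 and 8.66 CPM, a log2 ratio of 0.60 that is above each of its 5 class values (0.20 to 0.45), and with the same class weights in both libraries it was 0.33. Nr1d1 was at 12.9 and 13.6 CPM, 0.07, although each of its 5 class values was negative, and it was -0.34 with the same weights. The weights were those of the 5 classes, so shares of cell types within the nonendocrine class were not made equal. Npas2 went from 0.35 to 0.00 with the same class weights. The other 7 members had whole-library values within the range of their class values. The shares of classes depend on which cells were dispersed and sorted.

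**Figure D5:**
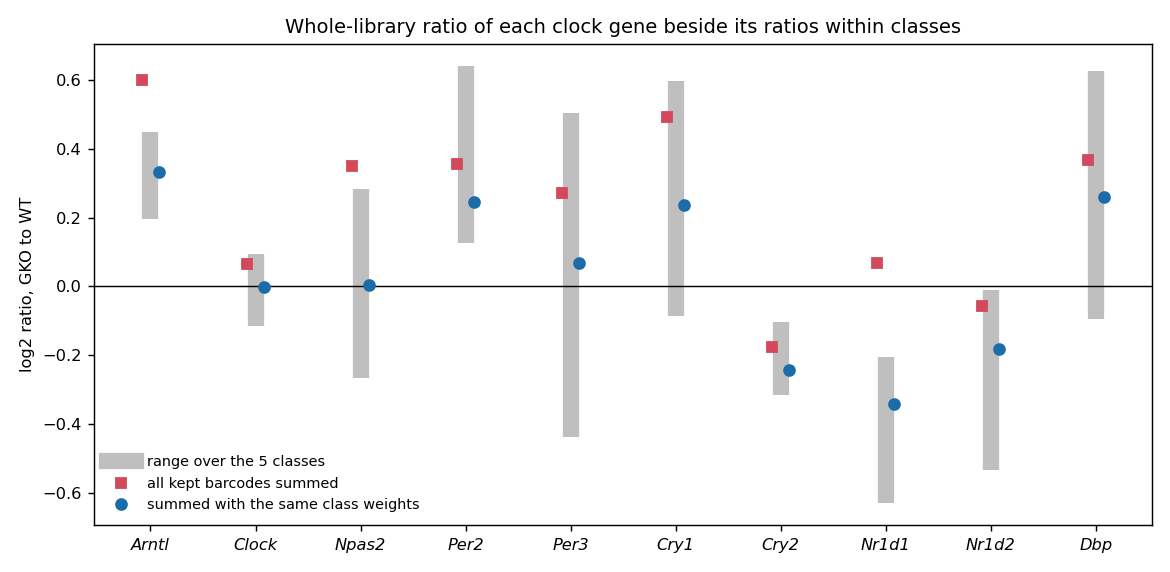
Log2 ratio of GKO to WT (y axis) of each clock gene over all kept barcodes (red squares) and with the same class weights in both libraries (blue circles), beside the range of its values in the 5 classes, those under 100 UMIs included (grey bars). The red squares of Arntl, Npas2 and Nr1d1 lie outside their grey bars, and all blue circles lie within them.

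A further 17 genes of the clock pathway were read in the same way, among them other outputs, kinases and ubiquitin ligases of the loop. Of 85 pairs of gene and class 70 were counted, with 2 higher, 2 lower and a median size of 0.20. Over the 5 classes, 2.34% to 9.87% of all genes were past the fold upward and 1.72% to 7.07% downward. The 4 pathway pairs past the fold were Bhlhe40 (0.71) and Usp2 (-0.51) in somatostatin-led, Wee1 (-0.59) in glucagon-led and Fbxl21 (0.51, interval -0.08 to 1.09) in insulin-led barcodes. Tef and Hlf, which belong to the same family as Dbp, lay between -0.32 and 0.29. Csnk1e, a kinase of PER proteins, was at 9.09 and 10.6 CPM in insulin-led and 24.4 and 34.2 CPM in glucagon-led barcodes, and its 5 ratios ran from 0.18 to 0.48 with all intervals above 0. In the 3 marker classes 6 of 34 counted pairs were higher and 3 lower. The lower ones were in endothelial and activated stellate barcodes, where 3.59% and 5.92% of all genes were past the fold downward. The 6 higher ones were all in epithelial-marker barcodes, where 17.5% of all genes were past the fold upward, for example Bhlhe40, a repressor of the loop (54.7 and 170 CPM, 1.63), Wee1, a cell cycle kinase under clock control (1.22), Usp2 (1.08) and Per1 (0.84). In endothelial barcodes Ciart, another repressor, was at 16.8 and 7.74 CPM, -1.12 (-1.78 to -0.50), and Tef was at -0.54 (-1.06 to -0.05). The genes named here were picked after their values were seen.

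Glucocorticoids reset clocks of peripheral tissues, and handling induces immediate early genes, so lists of each were set beside the clock genes. Of 10 glucocorticoid-responsive genes 9 were found. In the 5 classes 5 of their 42 counted pairs were higher and 15 lower. Of all genes, from 2.34% to 9.87% were past the fold upward in these classes and from 1.72% to 7.07% downward. Fkbp5 was lower in GKO in each class, from -1.12 to -0.74, with 28.01 and 14.5 CPM in insulin-led barcodes, and Sgk1 was past the fold downward in 3 classes. Zbtb16 was lower in each of 3 counted classes, from -2.94 to -1.91, whereas Errfi1 was higher, from 0.48 to 0.81. Klf9 ran from 0.01 to 0.48 and Tsc22d3 from -0.17 to 0.56. Mt1 was below 0 in all 5 classes (-1.17 to -0.07), Mt2 in 4 of 5 (-1.19 to 0.13) and Pdk4 in 3 of 4 (-0.31 to 0.03). The list thus had no single direction, with more pairs past the fold downward than upward. Of 50 pairs of immediate early genes 4 were higher and 2 lower. In epithelial-marker barcodes all 10 immediate early genes were above 0, with 6 past the fold. Of all counted genes there, 81.0% were above 0 and 17.5% past the fold upward. In endothelial barcodes all 7 counted glucocorticoid-responsive genes were below 0, with 3 past the fold. Of all counted genes in that class, 58.4% were above 0 and 3.59% past the fold downward. Neither list's part in the clock gene values was tested.

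Genes were also ranked by how closely their 5 log2 ratios resembled those of Dbp and Arntl, by the root mean square difference over the classes among 9536 genes counted in all 5. Among the 5 nearest to Dbp were Zc3h6 (0.07), Pus10, Lactb and Cast (0.12), and nearest to Arntl were Mrps28 (0.04), Micu3, Borcs7, Idh3a and Ugp2 (0.07). No clock gene was among them. Cry1 was the clock gene nearest to Dbp, at rank 201 with a difference of 0.21, and Nr1d1 was the farthest of the counted members from both, at ranks 9239 and 9306.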

How the data were processed

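Counts of UMIs per gene and barcode were used as deposited by the authors, 1 matrix per library. The submitters' processing notes name Cell Ranger 5.0.1 and the build mm10 (GRCm38). UMIs were summed per class of barcodes (500 or more genes, no more than 10% of UMIs mitochondrial) and divided by the class total. Ratios and exact 95% intervals came from Python 3.11.15 with scipy 1.17.1, numpy 2.4.6 and pandas 2.3.3, and figures from matplotlib 3.10.9. TMM factors came from edgeR 4.0.16 in R 4.3.3. The ratio and interval code was tested on simulated data. With 1 library per genotype no test across samples was possible, and intervals cover counting error only. No doublet caller was run, but barcodes with signs of 2 cell types were left out in an alternative. Positions are from GENCODE vM21. Named genes were the 10 clock genes, listed genes past the fold in the same direction in at least 3 of 5 classes, and the 5 nearest to Dbp and to Arntl, of which 1 is not reported here. The members and lists were chosen with earlier results of these data known. Cebpd of the glucocorticoid list was not found, and B cells (48 barcodes in WT) were not compared.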

Additional observations from a re-analysis of the deposited data

Results flagged for a closer look

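For 3 clock genes the exact intervals lay on opposite sides of 0 in 2 classes of barcodes, and the difference between the classes was not tested, since each class came from the same 2 libraries. Per3 had a log2 ratio of GKO to WT of 0.51 in glucagon-led and -0.44 in nonendocrine barcodes. The cell types of the nonendocrine class had other shares in each library, and Per3 was at 0.06, -0.12 and 0.12 in its endothelial, activated stellate and epithelial-marker barcodes, with intervals that held 0. Under 100 UMIs, Per3 had intervals below 0 in quiescent stellate barcodes (-1.59) and in nonendocrine ones that no marker list set apart (-1.67). The part of the cell type shares in the nonendocrine value was not tested. Nr1d1 stood at -1.16 in endothelial and 0.76 in epithelial-marker barcodes, and Dbp at -0.71 and 0.88 in these same classes.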

How the results depend on the processing

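No paired analysis was possible because each genotype had 1 library, and for the same reason no replicate could be left out. Of 716 alternative values of 64 log2 ratios, 660 stayed within the 95% interval of the reported value (91 of them identical because the setting removed no barcode of the class), 54 moved beyond it and 2 that had been past the fold turned sign: Nr1d1 in insulin-led barcodes (0.12, thinned to 5000 UMIs per barcode) and Dbp in epithelial-marker barcodes with fewer of Krt19, Krt7 and Sox9 (-0.029). Nr1d1 per Arntl in insulin-led barcodes also turned, to 0.076, when thinned, which leaves few UMIs, as it did in glucagon-led barcodes (0.63, without barcodes with signs of 2 cell types) and, from a positive value, in epithelial-marker barcodes with fewer of Krt19, Krt7 and Sox9 (-0.16). Arntl and Cry2 kept their sign in each of the 5 classes under all 11 alternatives, 3 of which could not alter nonendocrine values, and insulin-led Arntl came down to 0.040 when thinned. The 5 clock gene pairs past the fold in the 5 classes became 3 with every deposited barcode, 9 with equal weight of barcodes, 3 with TMM scaling and 0 at a log2 ratio of 1. The 9 in the marker classes became 4 when thinned, 3 at a log2 ratio of 1, and 15 from 20 UMIs or from 1 UMI in each library. The 4 pathway pairs became 2 with a leading hormone at 25%, 1 without barcodes with signs of 2 cell types, 8 with equal weight, 0 at a log2 ratio of 1, 13 from 20 UMIs and 14 from 1 UMI, and the 9 in the marker classes became 3 when thinned, 4 at a log2 ratio of 1 and 15 from 1 UMI. Dbp per Arntl in insulin-led barcodes was 0.49 without barcodes with signs of 2 cell types and 0.75 when thinned, and it was -0.59 in epithelial-marker barcodes with fewer of the 3 keratin and Sox9 markers. Each of these intervals held 0. The rule for signs of 2 cell types kept 230 of 2265 insulin-led WT barcodes because it read the epithelial list. Leaving that list out, chosen after seeing the data, as was the split by Krt19, Krt7 and Sox9, kept 2083. Beyond what fewer UMIs or another threshold bring by construction, the cause was not tested.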
